A study of Homo sapiens with 12 samples.

Results

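The genes described here are 37 genes of glycolysis and of the hypoxia response, chosen by name, with earlier results of these data known, by a rule that uses no measured value. They comprise 17 glycolytic enzymes, 3 enzymes that set the level of fructose 2,6-bisphosphate, 7 subunits and oxygen sensors of the hypoxia-inducible factor (HIF), and 10 genes known to be induced by hypoxia. All 37 were present among the 28395 gene identifiers of the count table. A filter on low counts kept 36 of them for testing, and EGLN3 did not pass it.

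RNA was sequenced from BEAS-2B, an epithelial cell line of the human bronchus that was immortalised with viral genes, in 4 groups of 3 libraries that the labels call biological triplicates. All groups spent 24 h in medium free of serum and steroid. The TGFb1 libraries then had transforming growth factor-β1 at 40 pM for 24 h, and the Dex libraries had the glucocorticoid dexamethasone at 30 nM for 4 h. The Dex_TGFb1 libraries had TGF-β1 for 24 h and then dexamethasone for a further 4 h, and the control had neither. As described, Dex_TGFb1 also differs from TGFb1 and Dex in total treatment time. This time cannot be told apart from the effect of the added agent. All libraries come from 1 cell line, a growth protocol in the labels names A549 cells where every other field names BEAS-2B, and no label names a hypoxic group.

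Glycolysis splits glucose into pyruvate, which lactate dehydrogenase can reduce to lactate. Phosphofructokinase is its main control point and is activated by fructose 2,6-bisphosphate, which the PFKFB enzymes make and remove. When oxygen is present, prolyl hydroxylases of the EGLN family mark the HIF α subunits, and VHL then directs their destruction. When oxygen falls, the α subunits persist, pair with ARNT and switch on genes for glycolysis, pH control and mitochondrial turnover. Counts of RNA do not measure HIF protein, which is controlled mostly after transcription.

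Totals of 5861591 to 19727235 counts were read per library, with at most 7008203 in replicates 1 and 2 and at least 17968961 in replicate 3 of each group. All 9 epithelial markers looked for, keratins and CDH1 among them, passed the filter. Levels are given in CPM, the reads of a gene as a rate over the library's total after scaling by edgeR's TMM factors. The summed level of these markers was 2516 to 3307 CPM in control, 3173 to 5033 with TGF-β1, 3295 to 4910 with dexamethasone and 4615 to 7351 with both. The members of this list went different ways with TGF-β1, where 2 rose and 3 fell: mean KRT17 was 513 CPM in control and 1648 with TGF-β1, and mean KRT19 was 186 and 60.4. A list of 6 genes abundant in A549 cells summed to 15.4 to 55.1 CPM, from SERPINA1 (12.6 to 19.8), ALDH3A1 (up to 36.01) and AKR1B10 (up to 8.95). In that list the fibrinogen genes FGB and FGG did not exceed 0.335 CPM in any library. The leukocyte list of 5 summed to 10.7 to 19.6 CPM, nearly all of it CD68 (10.1 to 19.5), while PTPRC, CD3E and LYZ did not exceed 0.175 CPM. The fibroblast markers DCN and LUM did not exceed 0.309 CPM. The fibroblast list as a whole (4 genes) summed to 34.5 to 42.3 CPM in control and 180 to 201 CPM with TGF-β1, nearly all of it PDGFRB, and the part of this rise in the results for TGF-β1 was not tested. In bulk libraries, fewer cells that express a gene and less of its RNA per cell cannot be told apart.

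The core of the hypoxia response element, where HIF binds, reads ACGTG or GCGTG. Promoter windows of 250 bases before a start site were searched for both cores on both strands in the RefSeq table of build GRCh38.p14, so that the palindrome CACGTG counts as a match on each strand. The table held 32 of the 37 genes with 59 windows, and BNIP3L, PFKFB2, NDRG1, VHL and HILPDA had no entry. A core was found in 35 of the 59 windows (59.3%), against 43.2% of all 35116 windows. Counted per gene, 27 of the 32 had at least 1 (84.4%, against 47.4% of all genes), but these genes have more windows each. The stricter ACGTG was found in 20 windows (33.9%, against 18.5%). The glucocorticoid receptor's short recognition sequence AGAACA was found in 4 windows (6.78%, against 12.4%). A match is a description of letters and not a bound site. Stretches of 30 bases are printed 5′ to 3′ along the gene's own strand for 6 genes with large changes and a match, chosen after their values were seen, with the cores of either strand in capitals. They lie at chr2:74834063-74834092 (HK2, plus strand), chr9:35673898-35673927 (CA9, plus), chr19:46296966-46296995 (HIF3A, plus), chr11:18394471-18394500 (LDHA, plus), chr10:6202812-6202841 (PFKFB3, start site 2, plus) and chr3:48556952-48556981 (PFKFB4, minus).
HK2: agccaatggGCGTGcgCACGTcactgatcc
CA9: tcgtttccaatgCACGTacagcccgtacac
HIF3A: tgGCGTGgcacagccaaccgcgcgGCGTGg
LDHA: actcaCACGTGggttcccgCACGTccgccg
PFKFB3: caccctcctcccCACGTGgaagggggctgg
PFKFB4: tgagttgggcatGCGTGgtcggaggccggg

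In untreated cells, 4 glycolytic enzymes had the highest levels per length of the 37 genes. Mean levels in control, as CPM per kilobase of exon, were 880 for GAPDH, 857 for ENO1, 824 for PKM and 463 for ALDOA. GAPDH, ENO1 and PKM are glyceraldehyde-3-phosphate dehydrogenase, the main enolase and pyruvate kinase, and the replicate range of PKM covered the means of the other 2. Next came LDHB at 180, LDHA at 169, TPI1 at 153, HIF1A at 95.3, GPI at 80.7, EPAS1 at 79.3 and PFKP at 77.5 CPM per kilobase. The last 3 of these differed by less than the spread of GPI between replicates. PFKL, PGK1 and HK1 lay close together at 54.6, 54.2 and 51.5, and HK2 was far lower at 8.10. HIF3A (0.220), EGLN3 (0.325) and CA12 (0.153) were the lowest.

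TGF-β1 alone changed 13 of the 36 tested genes. Levels rose for 8, among them the lactate-forming LDHA, the PFKFB enzymes PFKFB3 and PFKFB4, HIF1A and the carbonic anhydrase CA12. Levels fell for 5, among them EPAS1, the PFKFB enzyme PFKFB2 and the neuronal enolase ENO2. The 13 genes are 36.1% of the tested genes, against 32.8% of all 13469 genes tested in the same comparison. In this fit, made without the replicate block, the share called is thus near that of genes at large (16.2% of all genes rose and 16.6% fell). The median log2 fold change of the 36 was 0.13, and that of all genes was -0.01. Calls throughout are Benjamini-Hochberg adjusted p under 0.05 in edgeR's quasi-likelihood test across all genes. With the replicate number as a block, 16 rose and 8 fell, 66.7% against 50.0% of all genes called. The share of the 36 is then less near that of genes at large. Scaling to library size without TMM factors puts the median of all genes at -0.217 in this comparison, in place of -0.009. Then 5 rose and 8 fell, with 22.4% of all calls higher in place of 49.5%. TPI1, PGK1 and HIF1A were no longer called under that scaling, at log2 fold changes of 0.19, 0.23 and 0.20, PFKM, LDHB and CA9 were added as lower, and no call turned its direction. The count of lower genes was 3 without control replicate 1, control replicate 3 or TGFb1 replicate 1 and 2 without TGFb1 replicate 2.

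Where dexamethasone followed TGF-β1, the effect of TGF-β1 was read against dexamethasone alone (Dex_TGFb1 against Dex). There 9 of the 36 genes rose and 8 fell, 47.2% against 32.3% of all genes (15.9% higher and 16.4% lower), with a median of 0.08 against -0.02. The block gave 15 and 12, 75.0% against 49.9% of all genes. Library-size scaling put the median of all genes at -0.227, in place of -0.023. It gave 4 higher and 12 lower, with 22.9% of all calls higher in place of 49.3%. PFKP, TPI1, PGK1, HIF1A and KDM3A were then no longer called, and ENO1, ENO2, LDHB and VHL were added as lower. Without Dex_TGFb1 replicate 3 the count of higher genes was 5. Of the 19 genes called for TGF-β1 in either setting, 11 were called both without and with dexamethasone.

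**Figure D1:**
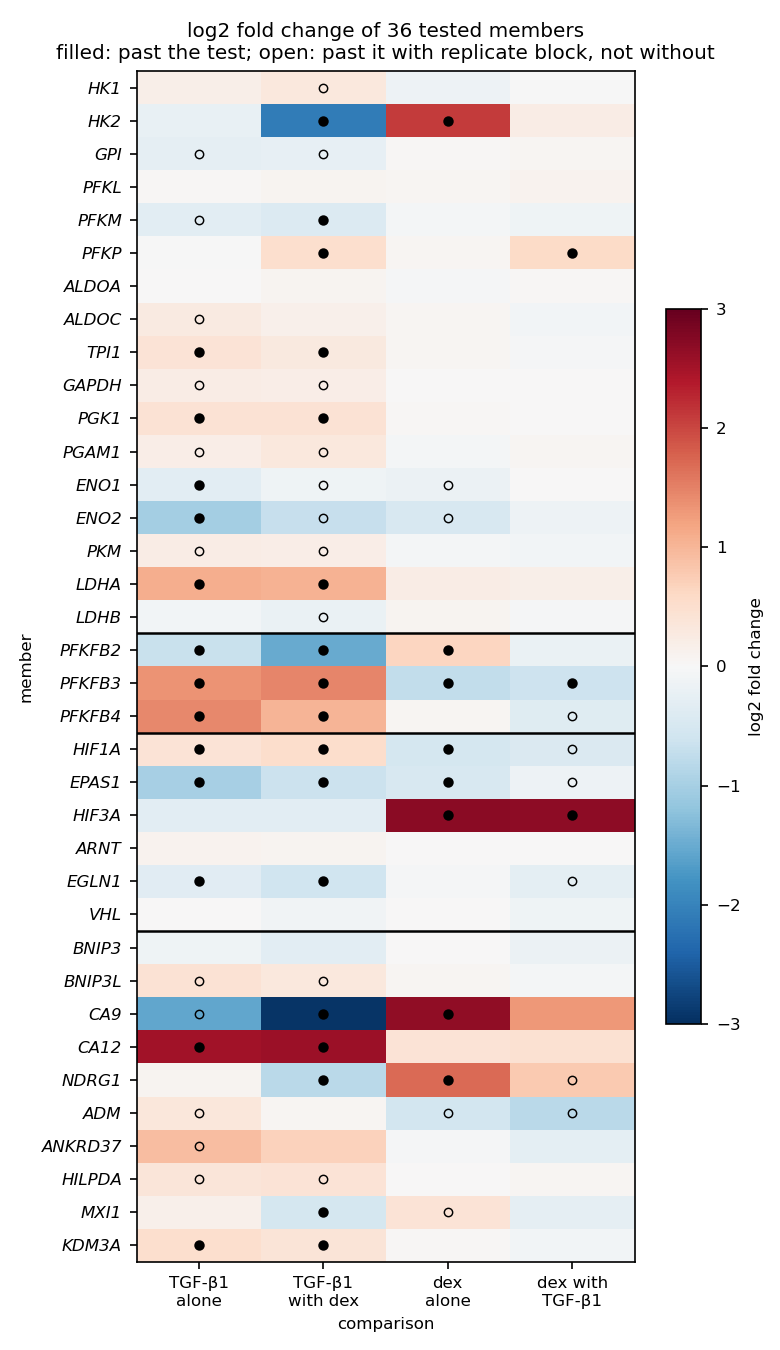
Log2 fold changes of the 36 tested genes (rows, in 4 groups by role) in the comparisons of 1 agent: TGF-β1 without and with dexamethasone, and dexamethasone without and with TGF-β1. The colour runs from -3 to 3 on the log2 scale, filled circles mark calls and open circles calls made with the replicate block and not without it. The left columns hold 13 and 17 filled circles and the right columns 8 and 3.

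Among the early enzymes of glycolysis, the hexokinase HK2 rose with dexamethasone alone. Hexokinases trap glucose in the cell, and HK2 is the inducible form. HK2 stood at 44.7, 40.4 and 59.2 CPM in control, at 41.2, 24.6 and 56.3 with TGF-β1, at 217, 174 and 235 with dexamethasone and at 45.1, 43.2 and 56.9 with both. The 3 dexamethasone libraries lay above all 9 others, and the other 3 groups overlapped. Dexamethasone alone raised it 4.29-fold (log2 fold change 2.10 ± 0.26 SE, adjusted p = 0.000209, higher in 3 of 3 same-numbered pairs). In cells given TGF-β1 first, dexamethasone gave 0.23 ± 0.26 (adjusted p = 0.791), and Dex_TGFb1 lay 4.27-fold below Dex (-2.10 ± 0.26, adjusted p = 9.58e-05).

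The difference between the dexamethasone effects on HK2 with and without TGF-β1 was tested as an interaction and came to -1.87 ± 0.36 on the log2 scale (adjusted p = 0.0392). It was the sole interaction called among the 36 genes, against 0.884% of all genes (0.483% higher and 0.401% lower). Leaving out any library but TGFb1 replicate 2 ended the call, with adjusted p of 0.0503 to 0.125 and values of -1.52 to -2.04. Without TGFb1 replicate 2 it was -2.12 (adjusted p = 0.00273). With the replicate block the interaction was called for HK2 (adjusted p = 0.000146), and also for PFKFB2 (0.00139) and MXI1 (0.0189) in the lower direction and for PFKP (0.00157) and EPAS1 (0.00727) in the higher direction. That is 5 of 36 (13.9%), against 4.78% of all genes.

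HK1, the constitutive hexokinase, did not pass in any comparison, with group means of 215 to 271 CPM (for Dex_TGFb1 against Dex 0.31, adjusted p = 0.00214 with the block). Of the 3 phosphofructokinase subunits, the platelet form PFKP changed where both agents were present. PFKP stood at 292, 265 and 321 CPM in control, at 318, 223 and 327 with TGF-β1, at 329, 274 and 305 with dexamethasone and at 475, 358 and 458 with both. All 3 libraries given both agents lay above the 9 others. Against TGF-β1 alone the log2 fold change was 0.57 ± 0.14 (adjusted p = 0.0253), a call lost without TGFb1 replicate 2, Dex_TGFb1 replicate 1 or Dex_TGFb1 replicate 3 (adjusted p at most 0.108). Against Dex it was 0.51 ± 0.14 (adjusted p = 0.0164), lost without Dex replicate 2, Dex_TGFb1 replicate 1 or Dex_TGFb1 replicate 3 (at most 0.071). Both calls were also made with the block (adjusted p = 3.41e-06 and 5.38e-06). For TGF-β1 alone and dexamethasone alone the values were -0.02 and 0.05, and neither was called. The interaction of 0.52 ± 0.20 did not pass (edgeR adjusted p = 0.493, and 0.00157 with the block).

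The muscle form PFKM stood at 85.7, 66.4 and 90.6 CPM in control, 68.0, 63.9 and 63.3 with TGF-β1, 86.6, 63.2 and 85.5 with dexamethasone and 61.9, 58.3 and 58.0 with both. The libraries with both agents lay below all others, and the TGF-β1 libraries overlapped those without it. It fell in Dex_TGFb1 against Dex (-0.41 ± 0.13, adjusted p = 0.0248), a call lost without Dex replicate 1 or 3 or Dex_TGFb1 replicate 2 or 3 (at most 0.105). Against control TGF-β1 alone gave -0.32 ± 0.13 (adjusted p = 0.0661, and 0.0031 with the replicate block). PFKL, the liver form, was not called with or without the block. GPI, which makes fructose 6-phosphate, had values of -0.28 and -0.24 for TGF-β1 that were called with the block (adjusted p = 4.3e-05 and 0.000262).

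In the middle of the pathway, the triose isomerase TPI1 stood at 343, 335 and 318 CPM in control, 464, 392 and 454 with TGF-β1, 373, 338 and 326 with dexamethasone and 436, 365 and 476 with both. The TGF-β1 libraries lay above all 3 controls, and those with both agents overlapped the dexamethasone group. It rose 1.32-fold with TGF-β1 (0.40 ± 0.10, adjusted p = 0.00751) and 1.23-fold in Dex_TGFb1 against Dex (0.30 ± 0.10, adjusted p = 0.0333), the latter lost without Dex replicate 2 or 3 or Dex_TGFb1 replicate 1 or 3 (at most 0.153). Its processed pseudogenes TPI1P2 and TPI1P3 took 1548 counts against 48507 for TPI1, so reads could be split between copies. TPI1 also overlaps SPSB2.

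Phosphoglycerate kinase PGK1, the first ATP-forming step, stood at 287, 255 and 269 CPM in control, 378, 293 and 429 with TGF-β1, 298, 251 and 284 with dexamethasone and 384, 310 and 425 with both. The libraries with TGF-β1 lay above those of the matching group without it. The rise was 1.36-fold (0.44 ± 0.14, adjusted p = 0.0233) without dexamethasone and 1.35-fold (0.43 ± 0.14, adjusted p = 0.0281) with it. The first call was lost without control replicate 2 or 3 or TGFb1 replicate 1 or 3 (at most 0.112) and the second without Dex replicate 2 or 3 or Dex_TGFb1 replicate 1 or 3 (at most 0.12). Both were called with the block (adjusted p = 0.00014 and 0.000179).

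GAPDH, often used as a reference gene, stood at 2049, 1793 and 2029 CPM in control, 2346, 1930 and 2559 with TGF-β1, 2076, 1831 and 2036 with dexamethasone and 2396, 1911 and 2590 with both. The groups overlapped. For TGF-β1 its value was 0.22 ± 0.13 (adjusted p = 0.209, and 0.00277 with the replicate block, higher in 3 of 3 pairs), and for dexamethasone 0.02 ± 0.13 (adjusted p = 0.979). PGAM1 and PKM likewise had values of 0.21 and 0.22 for TGF-β1 that were called with the block and not without it (adjusted p = 0.0179 and 0.000488). The values of GAPDH, PGAM1 and PKM are about as large as the shift from scaling. Without TMM factors the median of all genes in this comparison was -0.217 in place of -0.009. ALDOC, the minor aldolase, lay between 18.6 and 63.5 CPM, and its 0.28 for TGF-β1 was likewise called with the block (adjusted p = 0.00848). ALDOA, the main aldolase, lay between 888 and 1308 CPM in all 12 libraries and was not called with or without the block.

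The enolase genes ENO1 and ENO2 fell with TGF-β1 alone, while ENO3, a side gene of glycolysis, was not called (-0.21 ± 0.26, edgeR adjusted p = 0.594). ENO1 stood at 2072, 2174 and 1935 CPM in control, 1733, 1579 and 1656 with TGF-β1, 1982, 1764 and 1740 with dexamethasone and 1768, 1552 and 1641 with both. All TGF-β1 libraries lay below all controls. The fall was 1.24-fold (-0.32 ± 0.09, adjusted p = 0.014), lost without control replicate 2 or TGFb1 replicate 2 (at most 0.0556). For ENO2, the neuronal form, the levels were 67.5, 46.3 and 70.3 CPM in control, 27.0, 16.4 and 44.1 with TGF-β1, 44.8, 35.6 and 51.1 with dexamethasone and 27.1, 19.0 and 33.9 with both. Again all TGF-β1 libraries lay below all controls. ENO2 fell 2.04-fold with TGF-β1 (-1.03 ± 0.32, adjusted p = 0.0309), lost without control replicate 1 or 3 or TGFb1 replicate 1 or 2 (at most 0.103). For TGF-β1 alone ENO1 and ENO2 were also called with the block (adjusted p = 4.57e-05 and 5.54e-05). In Dex_TGFb1 against Dex neither was called, at -0.14 for ENO1 (adjusted p = 0.238, and 0.0301 with the block) and -0.70 for ENO2 (adjusted p = 0.132, and 0.00145 with the block). With the block both also fell for dexamethasone alone, at -0.17 for ENO1 (adjusted p = 0.0211) and -0.48 for ENO2 (adjusted p = 0.0184).

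LDHA, which turns pyruvate into lactate, rose in both comparisons for TGF-β1. Its levels were 467, 561 and 475 CPM in control, 1050, 959 and 1166 with TGF-β1, 550, 664 and 536 with dexamethasone and 1217, 1124 and 1263 with both. Every library with TGF-β1 lay above every library without it. The rise was 2.11-fold without dexamethasone (1.08 ± 0.11, adjusted p = 4.25e-06) and 2.06-fold with it (1.04 ± 0.11, adjusted p = 6.6e-06), and both calls held in all 18 alternative fits. Dexamethasone itself gave 0.22 ± 0.11 (adjusted p = 0.282). LDHB, the subunit that favours the reverse reaction, lay between 251 and 324 CPM in all libraries and was not called, though Dex_TGFb1 against Dex (-0.20, adjusted p = 0.0867) was called with the block (0.0103) and with library-size scaling (0.00197). Per kilobase LDHB was at 180 and LDHA at 169 in control, and at 169 and 356 with TGF-β1.

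Counted together, the 17 enzymes took 1.13 to 1.18% of all raw counts in control, 1.08 to 1.13% with TGF-β1, 1.08 to 1.13% with dexamethasone and 1.04 to 1.11% with both. By raw counts no treated library exceeded the highest control. For TGF-β1 the direction turned with TMM scaling, on which the 17 enzymes summed to 10385 to 10724 CPM in control, 11014 to 12091 with TGF-β1, 10231 to 10850 with dexamethasone and 11040 to 12145 with both. These sums were not tested.

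**Figure D2:**
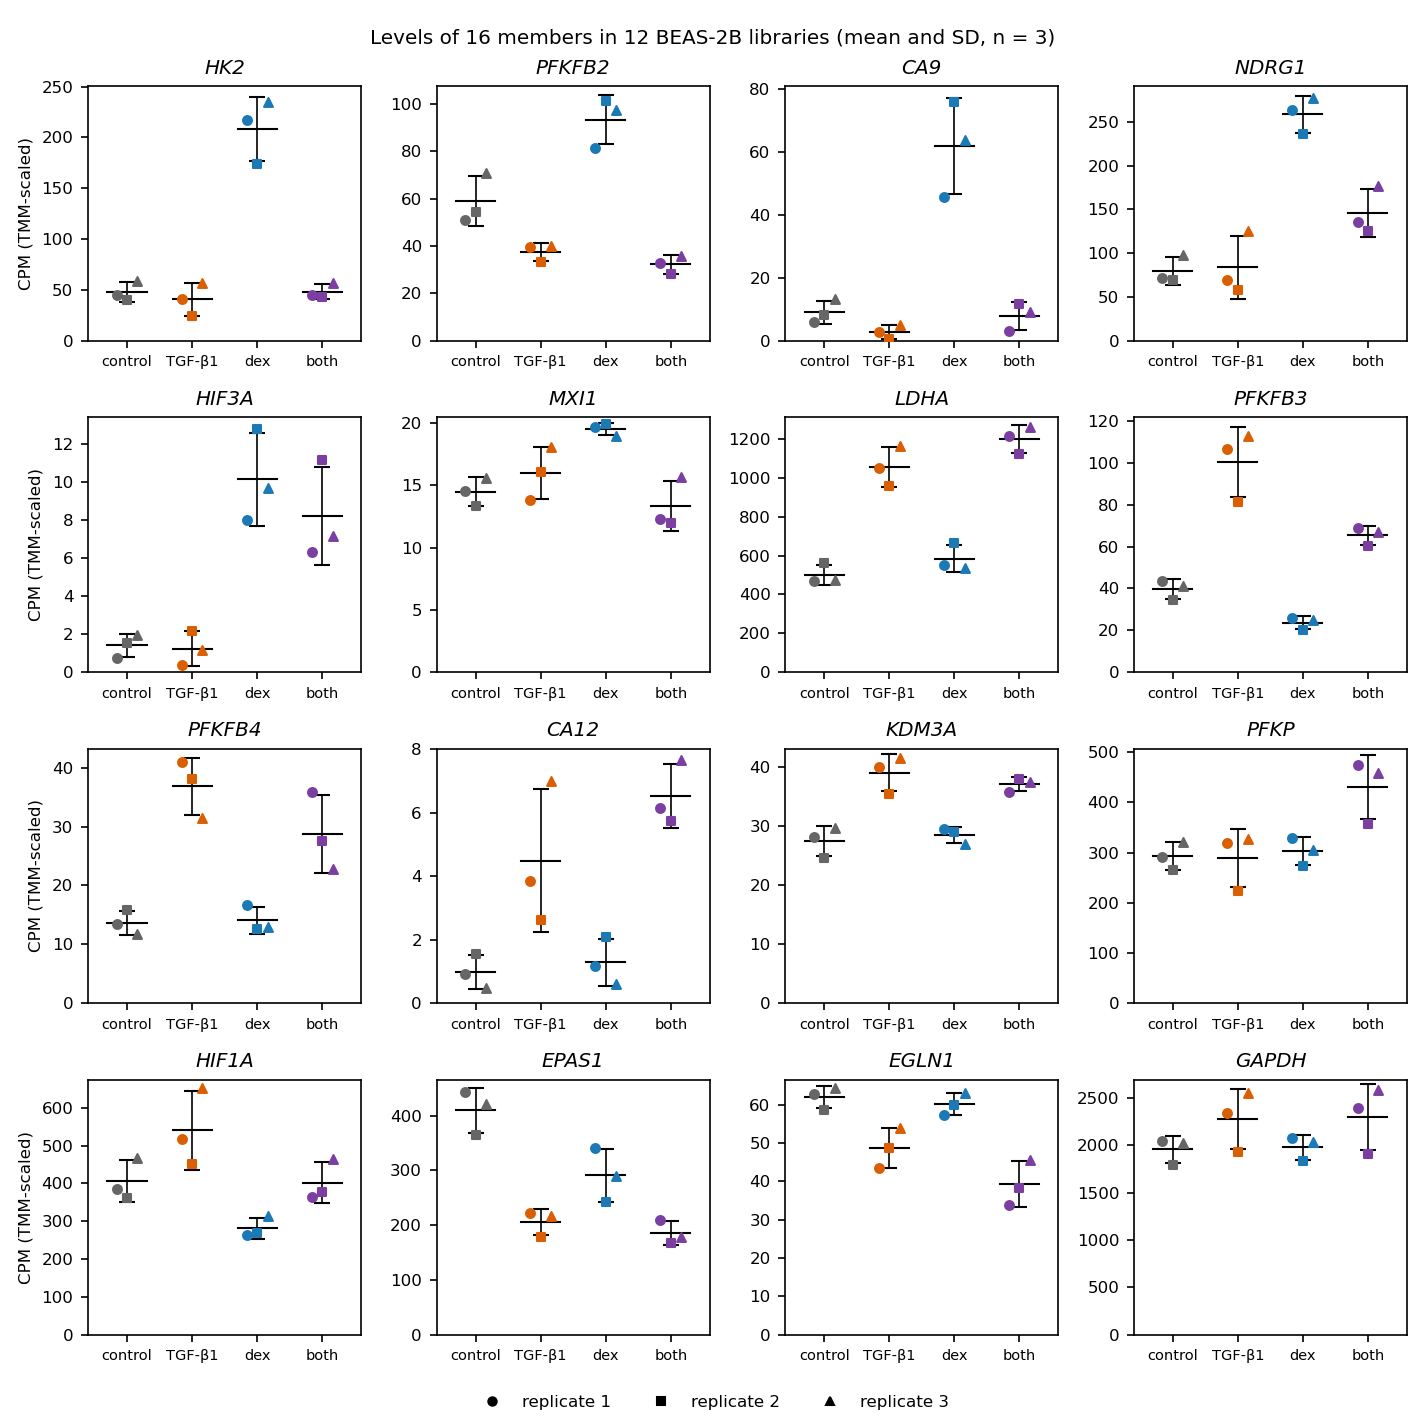
Levels in CPM on TMM-scaled library sizes (vertical axis, from 0) of 16 of the 37 genes in the 4 groups (horizontal axis). Each symbol is a library, the shape gives its replicate number, and bars give the mean and SD of 3 libraries. HK2, CA9, NDRG1 and PFKFB2 are highest with dexamethasone alone, while LDHA, PFKFB4, CA12 and KDM3A are higher in both groups that had TGF-β1.

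All 3 enzymes of fructose 2,6-bisphosphate were called for TGF-β1, in different directions. PFKFB3, the form with the strongest kinase activity, stood at 43.8, 34.5 and 41.1 CPM in control, 107, 81.6 and 113 with TGF-β1, 26.0, 19.9 and 24.8 with dexamethasone and 68.9, 60.2 and 67.2 with both. No library of a group overlapped any other group. TGF-β1 raised it 2.53-fold (1.34 ± 0.13, adjusted p = 3.81e-06), and dexamethasone lowered it 1.68-fold without TGF-β1 (-0.75 ± 0.14, adjusted p = 0.00217) and 1.54-fold with it (-0.62 ± 0.13, adjusted p = 0.00661). All of these calls held in all 18 alternative fits. The difference between the dexamethasone effects was 0.13 ± 0.19 (interaction adjusted p = 1.0).

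PFKFB4, a further form of the enzyme, stood at 13.5, 15.8 and 11.7 CPM in control, 41.0, 38.0 and 31.5 with TGF-β1, 16.7, 12.6 and 12.9 with dexamethasone and 35.8, 27.5 and 22.8 with both. Libraries with TGF-β1 lay above all those without it. The rise was 2.72-fold (1.44 ± 0.18, adjusted p = 3.29e-05) without dexamethasone and 2.03-fold (1.02 ± 0.18, adjusted p = 0.000668) with it. Dexamethasone in TGF-β1-treated cells gave -0.37 ± 0.17 (adjusted p = 0.296, and 0.00812 with the block).

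PFKFB2, the form abundant in heart, moved opposite to PFKFB3 for each agent alone. Levels were 51.1, 54.5 and 70.9 CPM in control, 39.4, 33.2 and 39.9 with TGF-β1, 81.5, 101 and 97.2 with dexamethasone and 32.7, 28.0 and 35.8 with both. Dexamethasone libraries lay above all others and control libraries above those with TGF-β1. It fell 1.58-fold with TGF-β1 (-0.66 ± 0.14, adjusted p = 0.00214) and rose 1.57-fold with dexamethasone (0.65 ± 0.13, adjusted p = 0.00413). Dex_TGFb1 lay 2.87-fold below Dex (-1.52 ± 0.14, adjusted p = 1.83e-06). The interaction was -0.87 ± 0.19 (adjusted p = 0.0582, 0.0475 with library-size scaling and 0.00139 with the block), and dexamethasone after TGF-β1 gave -0.21 ± 0.14 (adjusted p = 0.536).

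Among the HIF subunits, RNA of the oxygen-regulated α subunits changed and that of their constant partner ARNT did not pass. HIF1A stood at 386, 362 and 469 CPM in control, 517, 451 and 654 with TGF-β1, 262, 268 and 313 with dexamethasone and 365, 377 and 465 with both. The dexamethasone libraries lay below all others, the TGF-β1 and control libraries overlapped, and so did those with both agents and control. It rose 1.33-fold with TGF-β1 (0.41 ± 0.14, adjusted p = 0.0399) and fell 1.44-fold with dexamethasone (-0.53 ± 0.14, adjusted p = 0.0294). The first call was lost without control replicate 1 or 2 or TGFb1 replicate 1 or 3 (at most 0.189), and the second without control replicate 3 or Dex replicate 1 or 2 (at most 0.112). Both were called with the block (adjusted p = 1.87e-06 and 1.58e-07). In TGF-β1-treated cells dexamethasone gave -0.43 ± 0.14 (adjusted p = 0.101, and 4.49e-06 with the block, lower in all 3 pairs). Against Dex, Dex_TGFb1 was higher by 0.52 ± 0.14 (adjusted p = 0.0141, lost without Dex_TGFb1 replicate 3 at 0.066). HIF1A overlaps the antisense genes HIF1A-AS1 and HIF1A-AS2, and in an unstranded kit their reads cannot be told apart. Overlaps, leaving out microRNA genes, also exist for PFKFB2 (YOD1), PFKFB3 (LINC02649), PFKFB4 (UCN2), PFKM (SENP1), BNIP3 (PPP2R2D) and ANKRD37 (LRP2BP and UFSP2). The part of these overlaps in the results was not tested.

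EPAS1, which encodes HIF-2α, stood at 444, 364 and 421 CPM in control, 223, 179 and 217 with TGF-β1, 340, 243 and 290 with dexamethasone and 210, 167 and 179 with both. The controls lay above all other libraries, and those with TGF-β1 lay below all those without it. TGF-β1 lowered it 1.99-fold (-0.99 ± 0.13, adjusted p = 5.18e-05) and, where dexamethasone followed, 1.57-fold (-0.65 ± 0.13, adjusted p = 0.00162). Dexamethasone alone lowered it 1.41-fold (-0.49 ± 0.13, adjusted p = 0.0226), a call lost without control replicate 1 or 3 or Dex replicate 2 or 3 (at most 0.0935). This call was also made with the block (adjusted p = 1.51e-07). After TGF-β1 the value for dexamethasone was -0.16 ± 0.13 (adjusted p = 0.669, and 0.041 with the block).

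HIF3A, some of whose products restrain the other α subunits, was among the lowest of the 37 genes without dexamethasone. Levels were 0.758, 1.55 and 1.93 CPM in control, 0.350, 2.17 and 1.18 with TGF-β1, 7.98, 12.8 and 9.67 with dexamethasone and 6.32, 11.1 and 7.18 with both. Every library with dexamethasone lay above every library without it. The rise was 6.48-fold without TGF-β1 (2.70 ± 0.37, adjusted p = 0.000172) and 6.48-fold with it (2.69 ± 0.40, adjusted p = 0.000454), and both calls held in all 18 alternative fits. TGF-β1 gave -0.32 ± 0.47 (adjusted p = 0.644).

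ARNT, also called HIF-1β, stood at 74.4, 69.1 and 71.3 CPM in control, 77.1, 70.7 and 83.8 with TGF-β1, 77.0, 66.8 and 73.8 with dexamethasone and 71.0, 80.6 and 80.3 with both. All groups overlapped and it was not called in any comparison, with or without the block. The oxygen sensor EGLN1 stood at 62.9, 58.7 and 64.3 CPM in control, 43.5, 48.7 and 53.9 with TGF-β1, 57.4, 59.8 and 63.2 with dexamethasone and 33.9, 38.3 and 45.7 with both. Libraries with TGF-β1 lay below those without it. EGLN1 fell 1.27-fold without dexamethasone (-0.34 ± 0.11, adjusted p = 0.0289, lost without control replicate 1 or 3 or TGFb1 replicate 1 or 2, at most 0.118) and 1.52-fold with it (-0.60 ± 0.11, adjusted p = 0.000912). VHL, the recognition unit of the ligase, lay between 93.4 and 111 CPM in all libraries and was called neither with nor without the block.

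EGLN3, a further oxygen sensor and itself a HIF target, had 11, 8 and 38 reads in control, 9, 6 and 22 with TGF-β1, 2, 0 and 7 with dexamethasone and 5, 5 and 16 with both. A library with 0 counts allows up to 3. Without the filter on low counts its value for dexamethasone alone was -2.63 (adjusted p = 0.000711) and for Dex_TGFb1 against Dex 1.79 (adjusted p = 0.0278).

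Dexamethasone alone changed 8 of the 36 genes. HK2, PFKFB2, HIF3A, CA9 and NDRG1 rose, and PFKFB3, HIF1A and EPAS1 fell. That is 22.2%, against 10.4% of all genes (5.54% higher and 4.9% lower), with a median log2 fold change of 0.02 against 0.00 for all genes. In cells given TGF-β1 first, 3 of the 36 were called (PFKP and HIF3A higher, PFKFB3 lower), 8.33% against 8.11% of all genes (5.09% higher and 3.01% lower). PFKFB3 and HIF3A were the 2 genes called for dexamethasone in both settings. The count of lower genes was 1 for dexamethasone alone without control replicate 3, and 3 after TGF-β1 without TGFb1 replicate 2 and 2 without Dex_TGFb1 replicate 3. With the block, dexamethasone alone gave 6 higher and 6 lower (22.2% of all genes called) and dexamethasone after TGF-β1 gave 3 higher and 6 lower (17.5% of all genes called). The comparisons with control share its libraries, and Dex_TGFb1 against Dex shares the Dex libraries with Dex against control, so their values are not independent.

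**Figure D3:**
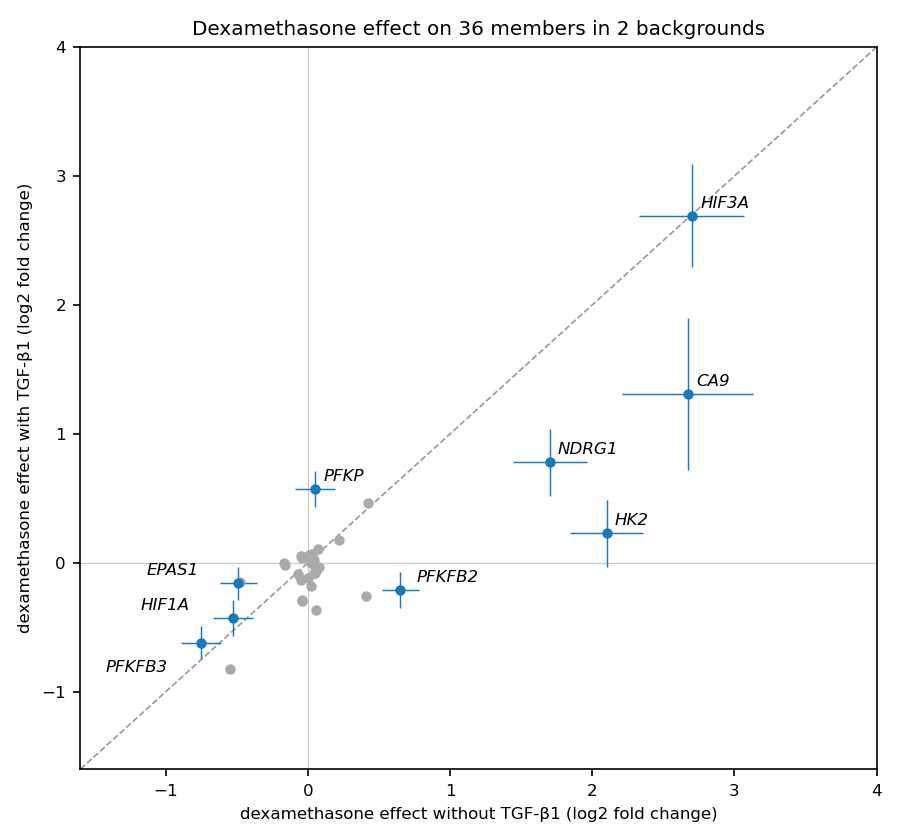
Log2 fold change for dexamethasone without TGF-β1 (horizontal axis) and with it (vertical axis) for the 36 tested genes. Blue points with names and SE bars are the 9 genes called in either comparison, grey points the others, and the dashed line marks equal values. HIF3A lies on the line at 2.70 and 2.69, while HK2 lies at 2.10 and 0.23.

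Of the 10 hypoxia-induced genes, 2 were called for each agent alone, 20.0% against 32.8% of all genes for TGF-β1 and 10.4% for dexamethasone. TGF-β1 raised CA12 and KDM3A, and the median of the 10 was 0.36 (with the block 6 rose and 1 fell, 70.0% against 50.0% of all genes). Dexamethasone raised CA9 and NDRG1, with a median of 0.05. CA9, a carbonic anhydrase of the cell surface and a classical HIF target, stood at 5.91, 8.23 and 13.1 CPM in control, 2.63, 0.464 and 4.99 with TGF-β1, 45.7, 76.0 and 63.8 with dexamethasone and 3.08, 11.7 and 9.003 with both. The dexamethasone libraries lay above all others, and the TGF-β1 libraries lay below the controls. Dexamethasone raised it 6.38-fold (2.67 ± 0.46, adjusted p = 0.0031), and Dex_TGFb1 lay 7.69-fold below Dex (-2.94 ± 0.48, adjusted p = 0.000913). For dexamethasone after TGF-β1 the value was 1.31 ± 0.59 (adjusted p = 0.294). Although CA9 was called for dexamethasone alone and not after TGF-β1, the interaction of -1.37 ± 0.76 did not pass (adjusted p = 0.905, and 0.411 with the block). TGF-β1 alone gave -1.57 ± 0.57 (adjusted p = 0.0583, with 0.0359 under the block).

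NDRG1, a cytoplasmic stress-response protein, stood at 71.1, 69.1 and 97.7 CPM in control, 69.4, 57.5 and 125.2 with TGF-β1, 263, 236 and 277 with dexamethasone and 136, 125.3 and 177 with both. Dexamethasone libraries lay above all others, and those with both agents lay above control and, by a narrow margin, above TGF-β1. Dexamethasone raised NDRG1 3.24-fold (1.70 ± 0.26, adjusted p = 0.00137). In TGF-β1-treated cells the value was 0.78 ± 0.26 (adjusted p = 0.115, and 0.016 with the block, higher in 3 of 3 pairs). Dex_TGFb1 lay 1.77-fold below Dex (-0.82 ± 0.26, adjusted p = 0.0314), a call lost without Dex replicate 1 or 3 or Dex_TGFb1 replicate 1 or 2 (at most 0.103). The interaction of -0.92 ± 0.37 did not pass (adjusted p = 0.553, and 0.0886 with the block).

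CA12, a related carbonic anhydrase, had the opposite preference. It stood at 0.910, 1.55 and 0.483 CPM in control, 3.86, 2.63 and 7.01 with TGF-β1, 1.18, 2.08 and 0.622 with dexamethasone and 6.16, 5.74 and 7.66 with both. Libraries with TGF-β1 lay above all those without it. TGF-β1 raised CA12 5.77-fold (2.53 ± 0.50, adjusted p = 0.00145) and, where dexamethasone followed, 5.93-fold (2.57 ± 0.46, adjusted p = 0.000797). KDM3A, a histone demethylase that HIF induces, stood at 28.2, 24.7 and 29.7 CPM in control, 40.1, 35.6 and 41.7 with TGF-β1, 29.6, 29.01 and 27.0 with dexamethasone and 35.8, 38.1 and 37.6 with both. Here too the libraries with TGF-β1 lay above all those without it. KDM3A rose 1.42-fold (0.50 ± 0.10, adjusted p = 0.00139) and, with dexamethasone present, 1.31-fold (0.39 ± 0.10, adjusted p = 0.00834, and 0.148 at 0.19 with library-size scaling).

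MXI1, a repressor that competes with MYC for its partner, stood at 14.6, 13.4 and 15.6 CPM in control, 13.8, 16.1 and 18.1 with TGF-β1, 19.7, 19.9 and 19.0 with dexamethasone and 12.3, 12.01 and 15.6 with both. Dexamethasone libraries lay above all others. Dex_TGFb1 was lower than Dex (-0.52 ± 0.14, adjusted p = 0.00965), and dexamethasone alone gave 0.41 ± 0.13 (adjusted p = 0.0698, and 0.011 with the block). The remaining hypoxia-induced genes were not called in any comparison of 1 agent or the interaction. Those called with the block and not without it were BNIP3L, ADM, HILPDA and ANKRD37, given here with the values of the block fit. BNIP3L, a receptor for the removal of mitochondria, had 0.43 for TGF-β1 (adjusted p = 7.22e-05). The vasodilator peptide ADM had 0.36 for TGF-β1 (adjusted p = 0.00428) and -0.54 for dexamethasone alone (adjusted p = 0.000465). Dexamethasone after TGF-β1 gave -0.83 for ADM (adjusted p = 3.36e-06). The lipid-droplet protein HILPDA had 0.4 for TGF-β1 (adjusted p = 0.0171) and ANKRD37 had 1.01 (adjusted p = 0.0209). BNIP3, which also acts in the removal of mitochondria, was not called with or without the block.

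Both agents together, set against control, left 11 of the 36 genes higher and 6 lower, 47.2% against 36.6% of all genes (18.5% higher and 18.1% lower). With the block the counts were 16 and 8, 66.7% against 53.1% of all genes. Library-size scaling gave 5 and 10, and without Dex_TGFb1 replicate 3 the count of higher genes was 7. HK2 (0.00), HIF1A (-0.01) and CA9 (-0.27) were not called there, although each was called for dexamethasone alone.

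Ratios of read counts between related genes of the same library do not depend on how libraries are scaled. Of 11 planned ratios 10 had at least 10 counts for both genes in every library, and each was tested for both agents with an exact two-sided permutation test within the levels of the other agent (400 arrangements, smallest p 0.005, adjusted over 20 tests). For TGF-β1, 6 ratios passed, and for dexamethasone 2. PFKFB2 to PFKFB3 was 1.17, 1.58 and 1.73 in control, 0.369, 0.407 and 0.353 with TGF-β1, 3.13, 5.07 and 3.91 with dexamethasone and 0.475, 0.465 and 0.534 with both. No group overlapped another. Averaged over the other agent, it fell by 2.49 on the log2 scale with TGF-β1 and rose by 0.91 with dexamethasone (both exact permutation adjusted p = 0.02). The settings differed in size: for dexamethasone the difference was 1.43 without TGF-β1 and 0.38 with it. For TGF-β1 it was -1.97 without dexamethasone and -3.01 with it.

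HK2 to HK1 was 0.175, 0.191 and 0.232 in control, 0.133, 0.127 and 0.182 with TGF-β1, 0.934, 0.906 and 1.06 with dexamethasone and 0.156, 0.191 and 0.199 with both. In the dexamethasone libraries the inducible hexokinase thus had about as many reads as the constitutive form. Averaged over the other agent, the change was -1.43 for TGF-β1 and 1.30 for dexamethasone (both exact permutation adjusted p = 0.0286). The averages describe neither setting: for dexamethasone the difference was 2.28 without TGF-β1 and 0.32 with it, and for TGF-β1 it was -0.44 without dexamethasone and -2.41 with it. LDHB to LDHA fell from 0.641, 0.461 and 0.627 in control to 0.259, 0.278 and 0.227 with TGF-β1 (average change -1.21, exact permutation adjusted p = 0.02). EPAS1 to HIF1A fell from 1.15, 1.01 and 0.898 in control to 0.431, 0.397 and 0.332 with TGF-β1 (-1.28, exact permutation adjusted p = 0.02). With dexamethasone EPAS1 to HIF1A was 1.30, 0.908 and 0.926, overlapping control.

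BNIP3 to BNIP3L fell by 0.66 with TGF-β1 (exact permutation adjusted p = 0.02) and PFKM to PFKL by 0.39 (0.0375), while ENO2 to ENO1 missed the threshold at -0.72 (0.0556). The replicate number as a block leaves too few arrangements: 3 numbers cannot give a p under 0.25 and 6 pairs reach an adjusted p of 0.0625 at the lowest, so no ratio passes. For PFKM to PFKL the call was lost whenever any library other than the 3 numbered replicate 2 in control, TGFb1 and Dex_TGFb1 was left out (adjusted p 0.05 to 0.0667). Leaving out TGFb1 replicate 1 also ended the call of HK2 to HK1 for TGF-β1 (adjusted p = 0.05) and reduced the ratios that passed from 6 to 4, and leaving out either TGFb1 replicate 1 or 2 reduced those for dexamethasone from 2 to 1, the lost ratio being HK2 to HK1 (adjusted p = 0.0571 and 0.05).

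**Figure D4:**
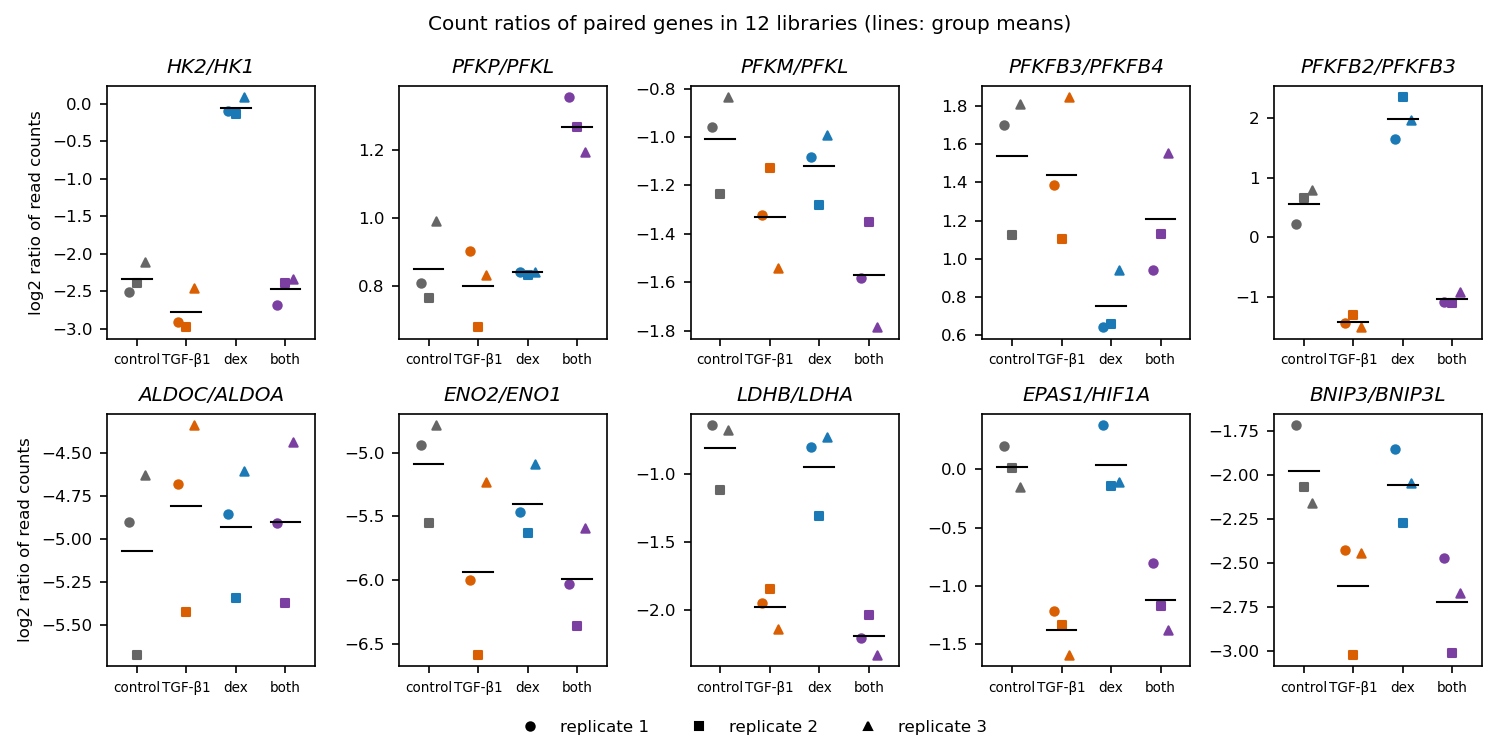
Log2 ratios of raw read counts of 10 gene pairs (vertical axes, each with its own range) in the 4 groups (horizontal axes). Symbols are libraries, shapes replicate numbers and lines group means. PFKFB2 to PFKFB3, LDHB to LDHA and EPAS1 to HIF1A are lower in every library with TGF-β1 than in any without it, and HK2 to HK1 is near 0 with dexamethasone alone.

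Other genes of the same pathways were taken from 3 further lists. Of 27 tested side genes of glycolysis (gluconeogenesis, pyruvate and sugar-phosphate enzymes), TGF-β1 raised 4 and lowered 9 (48.1%, against 32.8% of all genes), with a median of -0.20. Among genes whose mean log2 CPM reached 1, the largest rise was PGM3 (0.81 ± 0.17, adjusted p = 0.00205), an enzyme of amino sugar synthesis, and the largest fall PC (-0.86 ± 0.15, adjusted p = 0.000422), pyruvate carboxylase. Of 19 other genes of the HIF machinery 6 rose and 3 fell (47.4%), led by ARNT2 (2.02 ± 0.43, adjusted p = 0.00398), an ARNT relative, and CITED2 (-0.91 ± 0.11, adjusted p = 3.32e-05), which competes with HIF for a coactivator. Of 40 other hypoxia-induced genes 15 rose and 5 fell (50.0%), with a median of 0.39 against -0.01 for all genes. The rises included IGFBP3, which binds insulin-like growth factors, at 105 ± 21.0 CPM in control and 741 ± 142 with TGF-β1 (mean ± SD, n = 3), and RAB20 led the falls (-1.59 ± 0.21, adjusted p = 4.7e-05).

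Dexamethasone alone, with 10.4% of all genes called, gave calls for 1 of 27 side genes (PDP1, an activator of pyruvate dehydrogenase, -0.87 ± 0.15, adjusted p = 0.00092) and for 1 of 19 genes of the HIF machinery (CITED4, -1.24 ± 0.26, adjusted p = 0.00487). Of the 40 other hypoxia-induced genes 5 rose and 5 fell, 10 of 40, with a median of 0.02. The rises included TXNIP (1.42 ± 0.17, adjusted p = 5.76e-05), an inhibitor of glucose uptake. VEGFA, the main HIF-induced angiogenic factor, led the falls (-1.96 ± 0.34, adjusted p = 0.0033), from 83.7 ± 16.8 CPM in control to 21.5 ± 2.14 with dexamethasone (mean ± SD, n = 3). Under dexamethasone alone the HIF targets CA9 and NDRG1 rose where VEGFA fell.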

How the data were processed

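Polyadenylated RNA of 12 BEAS-2B libraries was sequenced from 500 ng of total RNA (integrity number above 8) with a non-directional kit, per the labels. The authors deposited unnormalised counts of reads for each gene, made with featureCounts on hg38 per the submitters' processing notes. Aligner, annotation and strand setting: not given in the sources used here. Of 18 count columns, 12 match a label and 6 were not used. Entrez identifiers were named with RefSeq's GRCh38.p14 gene table (27745 matched, 99.943% of counts), which also gave the overlaps of genes. Exon lengths come from GENCODE annotation. The genes and lists were chosen with earlier results of these data known.

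After edgeR's filterByExpr (minimum count 10), 13469 genes of all 12 libraries were fitted in 1 quasi-likelihood model with a mean per group and TMM scaling, using edgeR 4.0.16, limma 3.58.1 and R 4.3.3. A call is a Benjamini-Hochberg adjusted p under 0.05. SEs come from the log2 fold change and its F statistic, and CPM levels use TMM-scaled sizes. The fit was tested on simulated data. Ratios and figures used Python 3.11.15, scipy 1.17.1 and matplotlib 3.10.9. Every gene is named, and values of each library are given for called genes plus a fixed set of 7. From each further list leading genes are named, and 1 result is not reported here.

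No replicates agreed within sampling noise (chi-square of their counts 5.451 to 16.43 per degree of freedom). Replicate numbers paired the libraries by deviation from group means: the 18 same-numbered pairs correlated at 0.25 to 0.541, all over 0.1, and other pairs at -0.422 to 0.042. With the number as a block the common coefficient of variation fell from 0.1217 to 0.0577. Beyond the word biological nothing says that the triplicates were separate cultures, so p-values measure the spread between these libraries. Alternatives were DESeq2 1.42.0 and its size factors, library-size scaling, no filter, the block, each library left out and replicate 2 left out of all groups.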

Additional observations from a re-analysis of the deposited data

Results flagged for a closer look

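The effect of dexamethasone on HK2 differed with TGF-β1 present by the test of the difference itself (edgeR interaction, log2 -1.87 ± 0.36 SE, adjusted p = 0.0392). Dexamethasone libraries held 208 ± 31.3 CPM (mean ± SD, n = 3) against 48.1 ± 9.87 in control, and libraries with both agents held 48.4 ± 7.47 against 40.7 ± 15.9 with TGF-β1 alone. Without the filter on low counts the adjusted p was 0.188, and over libraries left out singly it ran from 0.00273 to 0.125. DESeq2's Wald test gave 5.22e-06. Groups of 3 libraries were not tested for outlying samples.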

How the results depend on the processing

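Of 59 calls of single genes, 32 were kept in all 18 alternative fits, 27 were lost in at least 1, and 0 reversed. The replicate block ended none of the 59 calls, and the fits with a library left out were made without it. HILPDA against control with both agents was lost in 15 fits and the HK2 interaction in 12. The cause was not tested. With library-size scaling, 5 genes were higher and 8 lower for TGF-β1, 4 higher for Dex_TGFb1 against Dex, 5 higher and 10 lower for Dex_TGFb1 against control, and 2 lower for the interaction. With the replicate block, 16 were higher and 8 lower for TGF-β1, 6 lower for dexamethasone, 6 lower for Dex_TGFb1 against TGFb1, 15 higher for Dex_TGFb1 against Dex, and 2 higher and 3 lower for the interaction. Without the filter, 1 was higher for Dex_TGFb1 against TGFb1. With replicate 2 left out of all groups, 5 were lower for dexamethasone and 2 for Dex_TGFb1 against TGFb1. That setting also ended the calls of ENO1 and EGLN1 for TGF-β1 and of MXI1 for Dex_TGFb1 against Dex. The fit without the filter, which tests more genes, ended those of ENO2 and HIF1A for TGF-β1, HIF1A for dexamethasone, PFKP for Dex_TGFb1 against TGFb1, and PGK1 and NDRG1 for Dex_TGFb1 against Dex. DESeq2's Wald test gave 2 lower for Dex_TGFb1 against TGFb1 and 2 lower for the interaction. Leaving out 1 library gave 2 to 6 lower for TGF-β1 (lowest without TGFb1 replicate 2), 1 to 4 lower for dexamethasone (lowest without control replicate 3), 1 to 3 higher and 1 to 3 lower for Dex_TGFb1 against TGFb1, 5 to 11 higher for Dex_TGFb1 against Dex and 7 to 11 higher against control (both lowest without Dex_TGFb1 replicate 3), and 0 to 2 lower for the interaction. For the ratios, the block over replicate numbers left 0 for TGF-β1 and 0 for dexamethasone, the block over 6 pairs, added after seeing the data, left 0 and 0, and single libraries left out gave 4 to 6 and 1 to 3. Depth limits EGLN3, with 0 to 38 reads per library. The counts of genes given for the alternative fits cover all 37 genes, so EGLN3 is included where such a fit tested and called it.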
